A study of Mus musculus with 6 samples.

Results

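Heat shock chaperones are described here in cultured mouse hippocampal neurons given forskolin, through 10 genes taken by symbol from the deposited count table. They are the HSP70 genes Hspa1a, Hspa1b, Hspa8 and Hspa5, the HSP110 gene Hsph1, the HSP90 genes Hsp90aa1 and Hsp90ab1, the J protein gene Dnajb1, the small heat shock protein gene Hspb1 and the transcription factor gene Hsf1. All 10 are rows of the table, which has 37411, and all 10 passed the filter on low counts together with 16233 genes in all. The cultures came from hippocampi of P0 pups of the outbred strain CD-1 IGS and were used after 16 days in vitro. In the forskolin group 3 libraries (4, 5 and 6) were made after 30 min with 50 µM forskolin, which activates adenylyl cyclase and raises cyclic AMP. In the DMSO group 3 libraries (1, 2 and 3) were made after the same time with an equal volume of the solvent. The labels do not say whether the libraries of a group came from separate cultures or pooled pups, so p-values measure only the spread between these libraries. The comparison asks whether chaperone transcripts differed soon after cyclic AMP rose.

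Heat shock proteins bind unfolded or partly folded proteins. HSP70 works in cycles of ATP binding that J proteins start and that HSP110 proteins reset by exchanging the nucleotide, and HSP90 takes over kinases, steroid receptors and other clients at a later stage of folding. When misfolded proteins build up, the factor HSF1 binds heat shock elements, which are inverted repeats of GAA units, and raises transcription of inducible members such as Hspa1a, Hspa1b, Hsp90aa1, Hsph1, Dnajb1 and Hspb1. Hspa8 and Hsp90ab1 are the constitutive cytosolic forms, and Hspa5 (BiP) serves the endoplasmic reticulum (ER) under the unfolded protein response. Neurons are known for a high threshold of the heat shock response and for abundant constitutive chaperones.

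The promoters of 6 of the 10 genes are in the RefSeq promoter table (build GRCm38.p6), which gives 250 bases before and 50 bases after each annotated start. The last 150 bases before the most upstream start are shown for the HSP70 copies Hspa1a and Hspa1b, whose values are compared below, for Dnajb1, which was higher in every forskolin library, and for Hspb1, which varied most between libraries. Capitals mark matches on either strand to a heat shock element of 2 units (GAANNTTC or TTCNNGAA) or to the core of the cyclic AMP response element, CRE (TGACG or its reverse complement CGTCA). The Hspa1a stretch lies at chr17:34972157-34972306 on the minus strand, that of Hspa1b at chr17:34959239-34959388 on the minus strand, that of Dnajb1 at chr8:83608025-83608174 on the plus strand and that of Hspb1 at chr5:135887769-135887918 on the plus strand.
Hspa1a: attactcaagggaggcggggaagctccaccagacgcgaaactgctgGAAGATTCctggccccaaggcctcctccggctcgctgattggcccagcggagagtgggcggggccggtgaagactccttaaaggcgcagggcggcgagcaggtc
Hspa1b: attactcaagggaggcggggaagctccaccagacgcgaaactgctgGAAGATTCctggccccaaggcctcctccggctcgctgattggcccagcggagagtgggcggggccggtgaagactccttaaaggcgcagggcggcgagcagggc
Dnajb1: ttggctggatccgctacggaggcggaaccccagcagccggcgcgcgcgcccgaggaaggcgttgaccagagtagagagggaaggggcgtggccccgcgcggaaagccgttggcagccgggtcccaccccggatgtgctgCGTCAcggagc
Hspb1: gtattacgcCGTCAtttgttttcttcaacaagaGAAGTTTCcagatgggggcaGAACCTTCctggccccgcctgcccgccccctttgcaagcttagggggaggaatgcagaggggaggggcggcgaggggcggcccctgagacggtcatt

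The Hspa1a and Hspa1b stretches were identical at 149 of 150 positions, each with a heat shock element from -104 to -97. Over the whole 300-base windows, 4 of the 6 promoters (Hspa1a, Hspa1b, Hsph1 and Hspb1) held a heat shock element of 2 units, as did 15.1% of the 32851 promoters in the table. A run of 3 such units (GAA, TTC and GAA with 2 bases of any kind between neighbours, or its reverse complement) was found in 1 of the 6, Hsph1, and in 0.603% of all promoters, and it overlaps matches of 2 units by construction. The CRE core was found in 3 of the 6 (Hspa5, Dnajb1 and Hspb1) and in 20.8% of all, and the full CRE (TGACGTCA) in 0 of the 6 and in 1.79% of all. Hspa5 also held the ER stress element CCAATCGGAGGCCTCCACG, at chr2:34772025-34772043 on the plus strand, a match to the pattern CCAAT, 9 bases of any kind and CCACG on either strand, which 0.119% of all promoters hold. These matches describe letters in the window and do not show that a factor was bound.

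Total counts ranged from 28342764 to 47548379 per library. Mitochondrially encoded genes took 14.7, 24.6 and 20.86% of them under DMSO and 30.54, 34.62 and 27.84% under forskolin, so this share was higher in every forskolin library. Fitted without those genes, the log2 differences of Hspa1b, Hsp90aa1, Dnajb1 and Hsf1 were -0.79, 0.74, 0.34 and -0.29; the part of RNA quality in the group differences below was not tested. Markers of 6 cell types were summed per library as CPM, which are counts relative to the TMM-adjusted library size. The 12 neuron markers, of which Map2 and Slc17a7 were the most abundant, summed to 4218, 4960 and 5437 CPM under DMSO and to 3149, 3375 and 5053 CPM under forskolin (here and below in the order of libraries 1 to 3 and 4 to 6). The 12 microglia markers summed to 14.5, 10.8 and 7.24 CPM under DMSO but to 209.6, 376 and 9.79 CPM under forskolin. The 10 astrocyte markers, led by Gfap and Slc1a2, summed to between 6978 and 8583 CPM over the 6 libraries, so the cultures labelled as neurons also held abundant astrocyte RNA. The 10 oligodendrocyte lineage markers summed to 913, 822 and 859 CPM under DMSO and to 1077, 1560 and 647 CPM under forskolin. Library 6 stood apart from libraries 4 and 5 in the neuron, microglia and oligodendrocyte lineage lists, within the DMSO range in the first pair and below it in the last. The summed levels of the groups overlapped in all 6 marker lists (exact two-sided permutation test, p from 0.3 to 1.0 before and 0.9 to 1.0 after adjustment over the 6 lists, where 0.1 is the smallest possible), and 1 marker, the endothelial gene Cldn5, was at 0 counts in every DMSO library. Single neuron markers did separate the groups: 5 of 12 were lower in every forskolin library, library 6 included, where 16.2% of all tested genes were, and 2 were called lower by edgeR, where 1.34% were, Rbfox3 (log2 fold change -0.87, adjusted p = 0.0392) and Neurod2 (-0.95, adjusted p = 0.0371), which are named here after their values were seen. Of the 12 markers 3 had a positive fold change: Map2 (0.05), Gad2 (0.21) and Dcx (0.10). Transcript GC content was 53.3 to 58.7% for the 5 lower markers and 38.7 to 47.8% for the neuron markers that overlapped, and its part was not tested. With each library's trend on GC content removed, 0 of all tested genes passed 0.05. In the other lists 3 of 10 oligodendrocyte lineage markers and 1 of 10 astrocyte markers were lower in every forskolin library, and 2 of 11 tested microglia, 1 of 10 astrocyte and 1 of 4 tested endothelial markers were higher in every one, where 10.3% of tested genes were. The part of these markers in the values of genes whose groups did not overlap, such as Hspa1b and Hsf1, was not tested.

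**Figure D1:**
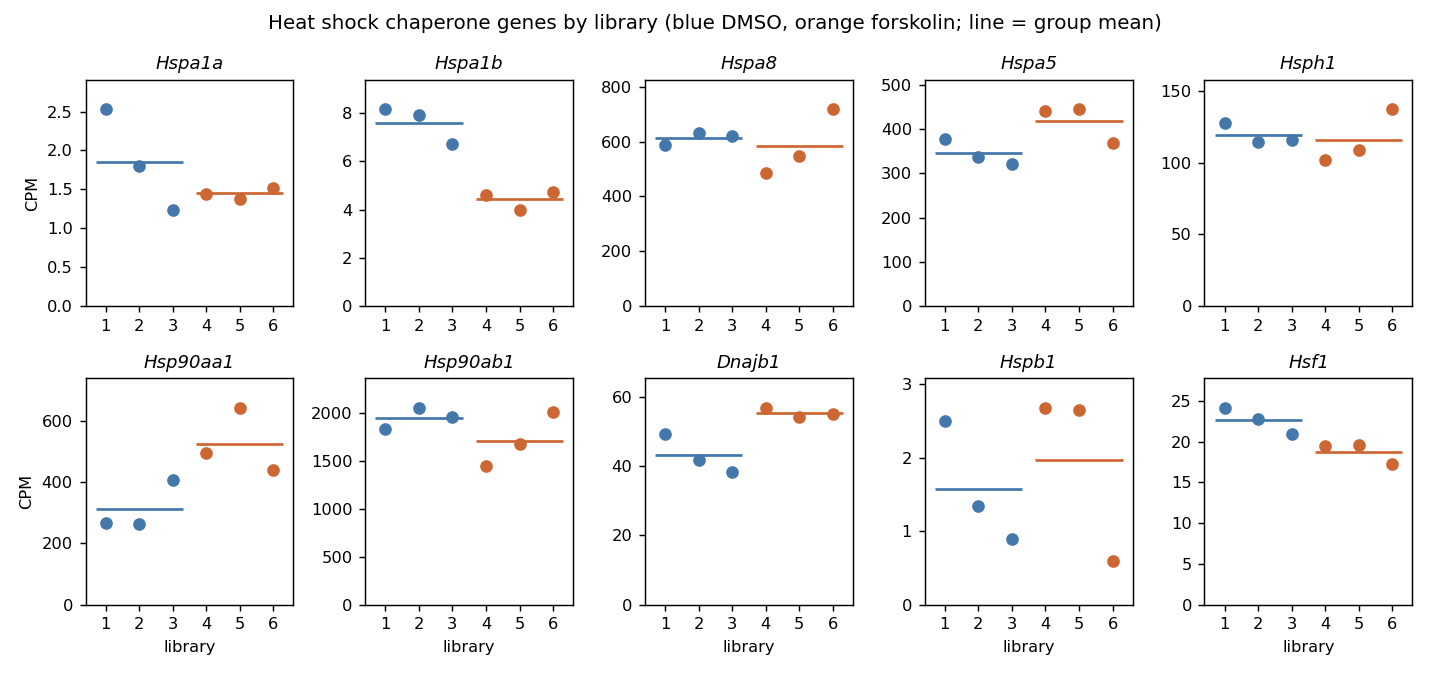
Each panel shows 1 gene, with CPM on a linear axis from 0 and the 6 libraries along the bottom; points are libraries, blue for DMSO and orange for forskolin, and lines are group means. Hspa1b and Hsf1 lie lower in every forskolin library and Hsp90aa1 and Dnajb1 higher, whereas the other 6 genes overlap.

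At 30 min the estimated fold changes of the inducible chaperone genes differed in sign, but edgeR called none of them on the 6 libraries. The signs of Hspa1a, Hsph1 and Hspb1 turned in at least 1 alternative. Hsp90aa1, the inducible cytosolic HSP90, and Dnajb1, the J protein that partners inducible HSP70, were higher in all 3 forskolin libraries, at 1.68 and 1.28 times the DMSO level. Hspa1b, an inducible HSP70 gene, was lower in all 3, at 0.584 times, and so was Hsf1, at 0.829 times. With edgeR's quasi-likelihood test on the 6 libraries, adjusted by Benjamini-Hochberg over all genes, 0 of the 10 passed 0.05, where 1.51% of tested genes did. At an unadjusted p under 0.05 there were 2 higher (Hsp90aa1, Dnajb1) and 1 lower (Hspa1b) of 10, against 22.3% of tested genes, 10.6% higher and 11.7% lower. The groups did not overlap in CPM for 4 of the 10, 2 higher and 2 lower, where 26.5% of tested genes did not, 10.3% higher and 16.2% lower. The median log2 fold change of the 10 genes was -0.06, and that of all tested genes 0.02.

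DESeq2 on the same libraries called 1 of the 10 higher, Hsp90aa1, and 1 lower, Hspa1b, where it called 10.9% of tested genes, 4.9% higher and 6.03% lower. Limma-voom called 0 of the 10, where 0.148% of tested genes were called higher and 1.19% lower. With library quality weights it called 3 higher (Hsp90aa1, Dnajb1, Hspa5) and 2 lower (Hspa1b, Hsp90ab1), where 41.9% of tested genes were called, 21% higher and 20.9% lower. Without library 6 edgeR called 2 higher (Hsp90aa1, Hspa5) and 1 lower (Hspa1b), where 33.6% of tested genes were called, 16.5% higher and 17.1% lower. Without any other single library it called 0 of the 10 and 0% of tested genes. With the GC trend removed and library 6 left out it called 3 higher (Hsp90aa1, Dnajb1, Hspb1) and 2 lower (Hspa1b, Hspa8), where 15.9% and 16.1% of tested genes were called. With libraries 4 and 5 left out it called 0 of the 10, where 0.555% of tested genes were called, 0.0354% higher and 0.519% lower.

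**Figure D2:**
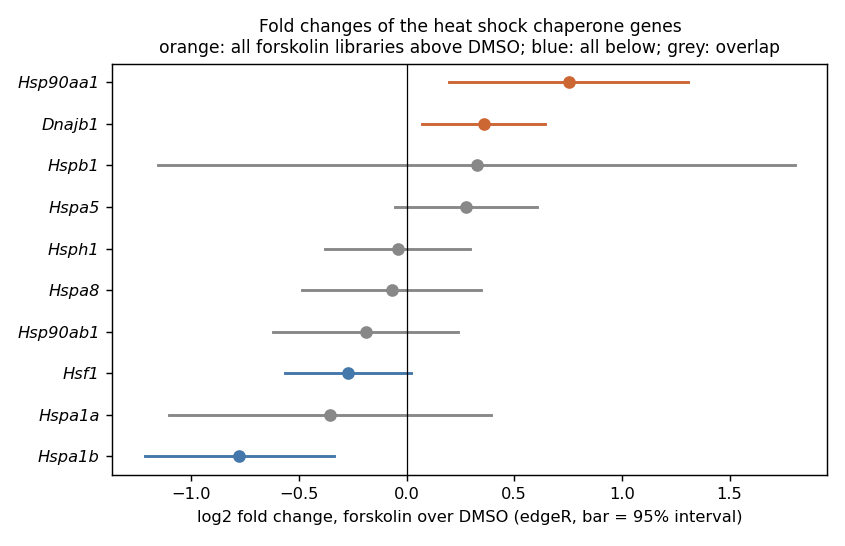
The horizontal axis is the edgeR log2 fold change of forskolin over DMSO over the 6 libraries; points are estimates, bars are 95% intervals, and colour shows whether the groups overlapped in CPM. The intervals of Hsp90aa1 and Dnajb1 lie above 0, that of Hspa1b lies below 0, and that of Hspb1 is the widest, from -1.15 to 1.80.

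The inducible HSP70 proteins are encoded by Hspa1a (ENSMUSG00000091971.3) and Hspa1b (ENSMUSG00000090877.3), single-exon genes that neighbour each other at chr17:34969190-34972156 and chr17:34956436-34959238 in GRCm38, both on the minus strand. Hspa1b stood at 8.15, 7.91 and 6.73 CPM under DMSO and at 4.61, 3.97 and 4.72 CPM under forskolin. Every forskolin library lay below every DMSO library, and library 6 did not stand apart from libraries 4 and 5. On the log2 scale they differed by -0.78 ± 0.18 (SE; 95% interval -1.22 to -0.34; edgeR adjusted p = 0.0977), with adjusted p from 0.00524 to 0.438 over the alternatives. Removing each library's trend on transcript GC content, which is 58.1% for Hspa1b, left -0.39 on the log2 scale (edgeR adjusted p = 0.438); 0 of all tested genes passed in that fit.

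Hspa1a was the least abundant of the 10 per length, with 81, 55 and 44 counts under DMSO and 68, 47 and 51 under forskolin. In CPM these were 2.53, 1.80 and 1.23 for DMSO, and 1.44, 1.38 and 1.52 for forskolin, so that all 3 forskolin libraries lay within the DMSO range. Its log2 fold change of -0.35 ± 0.32 (SE; 95% interval -1.10 to 0.39; edgeR adjusted p = 0.523) became 0.09 without the GC trend. At 44 counts the counting error alone is 15.1%. The copies are hard to tell apart by short reads: 63.8% of the 31-base words of the Hspa1a transcript also occur in Hspa1b, and 67.5% of those of Hspa1b in Hspa1a, so the split of reads between them is uncertain. The locus Gm20481 overlaps Hspa1a on the opposite strand and had 0 counts in every library. Counted as 1 gene, their summed log2 fold change was -0.68 (edgeR adjusted p = 0.124).

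Hspa8 (chr9:40800984-40810087, plus strand) encodes HSC70, the constitutive cytosolic HSP70 that also uncoats clathrin vesicles at synapses. Its level was 588, 631 and 619 CPM under DMSO and 486, 547 and 718 CPM under forskolin. Library 6 was the highest of the 6 and library 4 the lowest. The group difference of -0.07 ± 0.18 on the log2 scale (SE; 95% interval -0.49 to 0.35; edgeR adjusted p = 0.837) was small beside this spread. It turned positive without library 4 (0.05) or library 5 (0.01), and 59.7% of its 31-base words also occur in transcripts of other genes, mostly the locus Gm15459.

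Hsph1 (chr5:149614287-149636376, minus strand) encodes HSP105, an HSP110 that exchanges nucleotide on HSP70. DMSO gave 127.6, 114.5 and 115.8 CPM, and forskolin 101.7, 109.0 and 137.1 CPM. As for Hspa8, library 6 was the highest of the 6 and libraries 4 and 5 the lowest. Its log2 fold change was -0.04 ± 0.14 (SE; 95% interval -0.38 to 0.30; edgeR adjusted p = 0.881), and its sign turned without library 1, 4 or 5 (0.04, 0.04 and 0.03).

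Hsp90ab1 (chr17:45567775-45573271, minus strand), the constitutive HSP90, was the most abundant of the 10. Under DMSO it reached 1833, 2051 and 1955 CPM, and under forskolin 1441, 1672 and 2004 CPM. Libraries 4 and 5 lay below every DMSO library and library 6 lay among them (log2 difference -0.19 ± 0.18 (SE); 95% interval -0.62 to 0.24; edgeR adjusted p = 0.554). Hspa8, Hsph1 and Hsp90ab1 thus shared an order in the forskolin group, with library 6 the highest. The summed neuron markers had the same order there, at 3149, 3375 and 5053 CPM. Under DMSO they were 4218, 4960 and 5437 CPM, highest in library 3, whereas Hspa8 and Hsp90ab1 were highest in library 2 and Hsph1 in library 1. The part of these markers in the values of the genes was not tested. In such bulk cultures fewer cells of a type and less RNA per cell cannot be told apart.

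Hsp90aa1 (chr12:110690605-110702728, minus strand) encodes the inducible HSP90. Its values were 266, 262 and 406 CPM with DMSO, and 494, 642 and 439 CPM with forskolin. The groups did not overlap, but library 6 lay close to DMSO library 3. On the log2 scale the difference was 0.75 ± 0.23 (SE; 95% interval 0.20 to 1.31; edgeR adjusted p = 0.149), with adjusted p from 0.0107 to 0.425 over the alternatives. It passed with DESeq2 (adjusted p = 0.0174), with library quality weights (0.0107) and with edgeR without library 6 (0.0297). With the GC trend removed, where 0 of all tested genes passed, the difference was 0.56 (edgeR adjusted p = 0.362). With libraries 4 and 5 both left out, so that library 6 alone stood for forskolin and its spread was taken from the DMSO libraries, it was 0.53 (edgeR adjusted p = 0.401). The microglia sums of 209.6, 376 and 9.79 CPM under forskolin had the same order as Hsp90aa1 there. Under DMSO they were 14.5, 10.8 and 7.24 CPM, lowest in library 3, where Hsp90aa1 was highest. The part of these markers in the Hsp90aa1 values was not tested. Of its 31-base words, 57.0% also occur in the locus Gm12346.

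Hspa5 (chr2:34771970-34777547, plus strand) encodes BiP, the HSP70 of the ER lumen and the sensor partner of the unfolded protein response. Levels were 377, 338 and 321 CPM under DMSO, against 440, 445 and 368 CPM under forskolin. Libraries 4 and 5 lay above every DMSO library, whereas library 6 lay below library 1. Over all 6 libraries its log2 fold change was 0.27 ± 0.14 (SE; 95% interval -0.05 to 0.60; edgeR adjusted p = 0.287). Without library 6 it was 0.34 and passed (edgeR adjusted p = 0.0424), whereas GC removal left 0.14 (edgeR adjusted p = 0.650). Its transcript shares 0.0275% of its 31-base words with another gene, so its counts are nearly free of that ambiguity. The microglia and oligodendrocyte lineage sums were also highest in libraries 4 and 5, and their part in the Hspa5 values was not tested.

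Dnajb1 (chr8:83608193-83612653, plus strand) encodes HSP40, the J protein that stimulates the ATPase of HSP70. Counts scaled to 49.3, 41.8 and 38.4 CPM under DMSO, and to 56.8, 54.2 and 55.0 CPM under forskolin. All forskolin libraries lay above all DMSO libraries, and they were close to each other, with a mean of 55.3 ± 1.36 CPM against 43.2 ± 5.62 CPM (SD, n = 3). Its log2 fold change was 0.36 ± 0.12 (SE; 95% interval 0.07 to 0.64; edgeR adjusted p = 0.167). It was 0.39 with library 6 as the only forskolin library (edgeR adjusted p = 0.378) and 0.35 without library 6 (edgeR adjusted p = 0.0743). Removing the GC trend gave 0.48 (edgeR adjusted p = 0.246). It was smallest, at 0.24, with library size alone as the scale (edgeR adjusted p = 0.422), and it passed with library quality weights (0.0235).

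Hspb1 (chr5:135887919-135889563, plus strand) encodes HSP25, a small heat shock protein that holds unfolded proteins without ATP and binds actin filaments. Only 80, 41 and 32 counts fell on it under DMSO, and 126, 90 and 20 under forskolin. In CPM these were 2.50, 1.35 and 0.898 for DMSO, and 2.68, 2.64 and 0.597 for forskolin. Libraries 1, 4 and 5 were high and libraries 2, 3 and 6 low, in both groups, and the log2 fold change of 0.32 ± 0.62 (SE; 95% interval -1.15 to 1.80; edgeR adjusted p = 0.779) spans changes in either direction. With library 6 as the only forskolin library it was -1.36 (edgeR adjusted p = 0.408). The 7 endothelial markers summed to 37.0, 14.3 and 14.8 CPM under DMSO and to 31.7, 26.9 and 12.3 CPM under forskolin. That sum is high in the same libraries mainly through Kdr (26.05, 8.07 and 9.62 against 19.03, 22.33 and 8.48 CPM), whereas Cdh5 was lowest in library 5 and Pecam1 was low in library 1. Astrocyte sums (7746, 7539 and 7031 against 7744, 8583 and 6978 CPM) and oligodendrocyte lineage sums were also higher in libraries 1, 4 and 5 than in 2, 3 and 6, and the astrocyte gene Gfap stood at 2264, 1768 and 1097 CPM against 2801, 3003 and 1044 CPM. Not all astrocyte markers did so. Slc1a2 (1466, 1807 and 2058 against 1128, 1466 and 2142 CPM) was lower in libraries 1, 4 and 5. Aldoc (1694, 1856 and 1677 against 957, 944 and 1659 CPM) was lowest in libraries 4 and 5. The part of these cell types in the Hspb1 values was not tested. Of the 31-base words of Hspb1, 56.7% also occur in the pseudogene Hsp25-ps1.

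Hsf1 (chr15:76477422-76501913, plus strand) encodes the factor that drives the heat shock response; its activity is set mostly by release from chaperones, trimer formation and phosphorylation, which counts of RNA do not measure. Its transcripts measured 24.14, 22.84 and 20.98 CPM under DMSO, and 19.5, 19.5 and 17.3 CPM under forskolin. All forskolin libraries lay below all DMSO libraries (log2 fold change -0.27 ± 0.12 (SE); 95% interval -0.56 to 0.02; edgeR adjusted p = 0.251), and adjusted p ranged from 0.0910 to 0.573 over the alternatives. GC removal left -0.13 on the log2 scale (edgeR adjusted p = 0.573), and the GC content of its longest transcript is 53.4%. That transcript is annotated with 1 exon and may not be the form expressed.

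Levels were compared between genes as CPM per kilobase of the longest annotated transcript. It may not be the form expressed, and it has 1 exon for Hsf1 and 4 for Hspa8. In the DMSO libraries Hsp90ab1 stood first at 772 ± 43.4 CPM per kilobase and Hspa8 second at 194 ± 6.97 (SD, n = 3). Hsp90aa1 (94.9 ± 24.9) and Hspa5 (94.1 ± 7.75) came next and overlapped each other. They were followed by Hsph1 (25.04 ± 1.51), Dnajb1 (14.4 ± 1.87) and Hsf1 (7.23 ± 0.507), each apart from its neighbours. Hspa1b (2.71 ± 0.271) and Hspb1 (1.70 ± 0.888) overlapped, and Hspa1a was last at 0.626 ± 0.219 CPM per kilobase. The constitutive genes thus had the highest levels and the inducible HSP70 genes were among the lowest under DMSO. In the forskolin libraries Hsp90aa1 stood at 160 ± 32.0 CPM per kilobase and overlapped Hspa8 (185 ± 38.0), and Hspb1 (2.12 ± 1.28) had a higher mean than Hspa1b (1.58 ± 0.145) while overlapping it. The order of the other genes was the same as under DMSO.

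Ratios of counts within a library do not depend on how libraries are scaled, but they can still carry a library's GC trend. Transcript GC content is 43.7% for Hsp90aa1, 51.0% for Hsp90ab1, 45.9% for Hspa8, 58.9% for Hspa1a and 58.1% for Hspa1b. The part of that trend in the ratios was not tested. Per 100 counts of Hsp90ab1 there were 14.5, 12.8 and 20.8 of Hsp90aa1 under DMSO and 34.3, 38.4 and 21.9 under forskolin. The inducible form thus stood higher against the constitutive one in every forskolin library, by 1.97 times in the group means, although library 6 exceeded library 3 only narrowly (exact two-sided permutation test, p = 0.1, the smallest possible; 0.2 adjusted over 6 ratios). With library 6 as the only forskolin library the ratio of means was 1.37.

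Per 100 counts of Hspa8, Hspa1a and Hspa1b together gave 1.82, 1.54 and 1.29 under DMSO and 1.24, 0.977 and 0.869 under forskolin, again without overlap (exact permutation p = 0.1, adjusted 0.2). This sum is mostly Hspa1b, the CPM of Hspa1a alone overlapped between the groups, and library 6 had the lowest value of the 6. Hspa1a gave 31.03, 22.8 and 18.3 counts per 100 of Hspa1b under DMSO and 31.34, 34.8 and 32.3 under forskolin (exact permutation p = 0.1, adjusted 0.2), with DMSO library 1 just below forskolin library 4. Hspa1a had only 44 to 81 counts, and the split of reads between the copies is uncertain, so this ratio is too.

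The ratios of Hspa5, Dnajb1 and Hsph1 to Hspa8 overlapped between the groups. For Hspa5 these were 64.0, 53.6 and 51.9 per 100 under DMSO and 90.6, 81.2 and 51.3 under forskolin (exact permutation p = 0.4, adjusted 0.48). For Dnajb1 they were 8.39, 6.62 and 6.20 under DMSO and 11.7, 9.89 and 7.67 under forskolin (exact permutation p = 0.2, adjusted 0.3). Hsph1 was the steadiest of them, from 18.2 to 21.7 under DMSO and from 19.1 to 20.9 under forskolin (exact permutation p = 0.7 before and after adjustment).

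**Figure D3:**
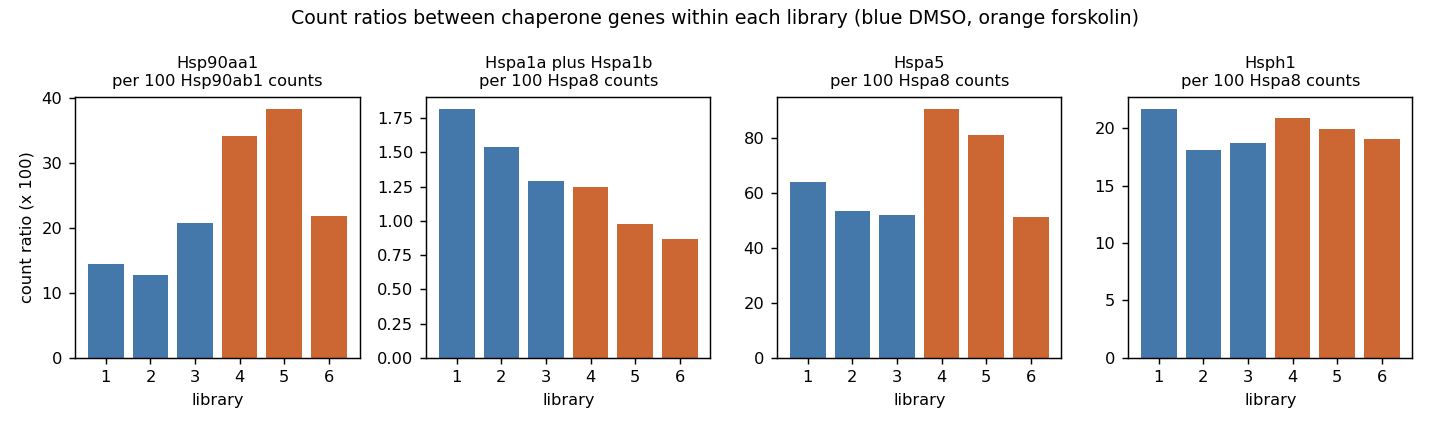
Bars in 4 panels give, for each of the 6 libraries, the counts of 1 gene or gene pair per 100 counts of another, on linear axes from 0, blue for DMSO and orange for forskolin. The Hsp90aa1 ratio is highest in libraries 4 and 5 (34.3 and 38.4), the Hspa1a plus Hspa1b ratio is lowest in library 6 (0.869), and the Hsph1 ratio stays between 18.2 and 21.7.

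The direction of change was the same in every alternative tried for 5 of the 10 genes: Hspa1b, Hsp90aa1, Dnajb1, Hspa5 and Hsf1. It turned in at least 1 alternative for the other 5 (Hspa1a, Hspa8, Hsph1, Hsp90ab1 and Hspb1). Hsf1, Hsph1 and Hspa1a passed the threshold in none of the alternatives.

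**Figure D4:**
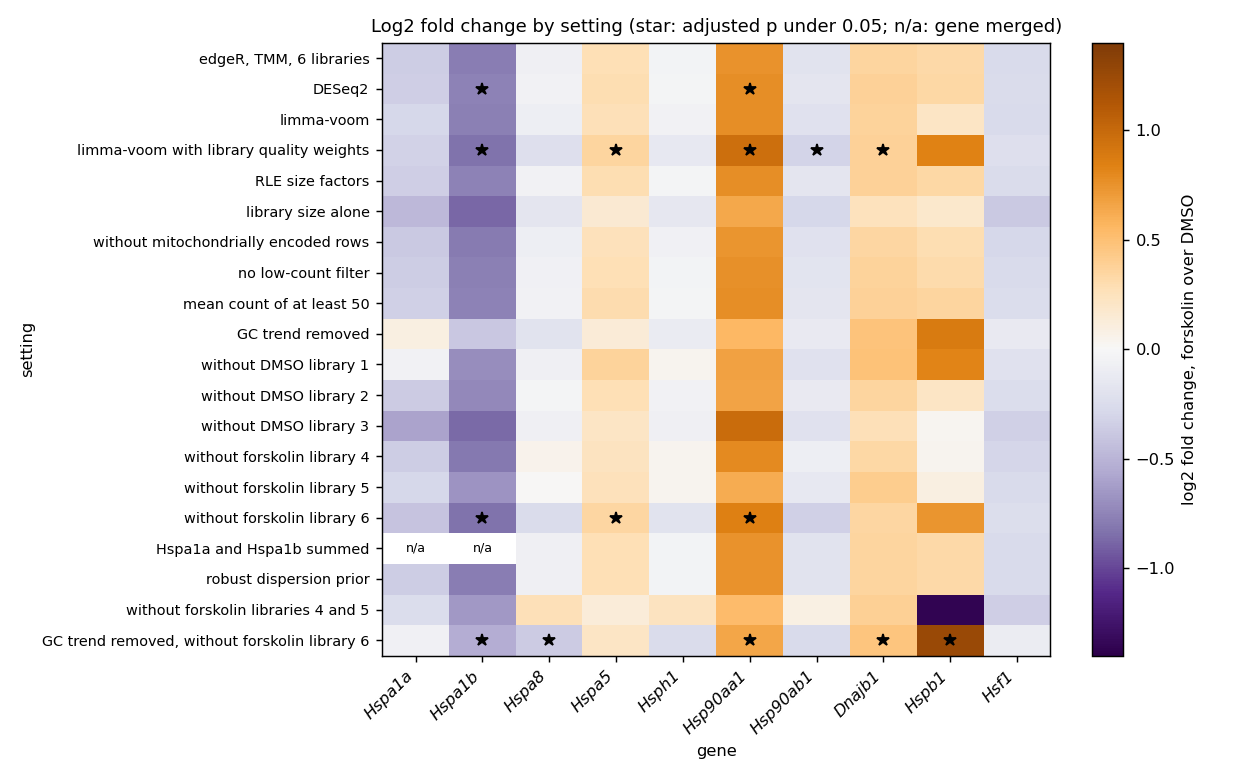
Rows are the settings of the fit and columns the 10 genes; colour is the log2 fold change of forskolin over DMSO, from violet (lower) to orange (higher), and stars mark an adjusted p under 0.05. Hspa1b is violet and Hsp90aa1 and Dnajb1 are orange in every row that holds them, and the stars stand in the rows of DESeq2, of library quality weights and of settings without library 6.

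Other chaperone genes came from 8 lists by family, with 97 genes of which 91 were tested. Of these, 0 were called higher and 1 lower by edgeR, where 0.172% and 1.34% of tested genes were; 6 were higher and 10 lower at an unadjusted p under 0.05, where 10.6% and 11.7% of tested genes were, and their median log2 fold change was -0.01. The gene called was Stub1, in the list of HSP90 family and cochaperones, which encodes the ubiquitin ligase CHIP that marks chaperone clients for degradation. It fell from 34.6, 35.1 and 30.2 CPM to 16.4, 15.9 and 10.4 CPM (log2 fold change -1.23 ± 0.20 (SE); edgeR adjusted p = 0.0426). Its GC content is 60.8%, and removing the GC trend left -0.69 (edgeR adjusted p = 0.187). Without library 1, 2, 3, 4 or 5 in turn it did not pass (edgeR adjusted p from 0.130 to 0.313), in fits where 0 of all genes passed, while the fold stayed between -1.17 and -1.34. It passed with DESeq2 (adjusted p = 4.27e-06), limma-voom (0.0444), edgeR without library 6 (0.00338) and GC removal without library 6 (-0.62; 0.00616).

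In the same list 16 of 16 genes were tested, with 5 lower and 2 higher at an unadjusted p under 0.05 (11.7% and 10.6% of all tested genes), and the most positive was Chordc1, an HSP90 cochaperone (26.9, 29.3 and 36.5 CPM against 37.0, 45.9 and 38.8; log2 fold change 0.39; edgeR adjusted p = 0.204), whose sign turned with the GC trend removed (-0.27). Among 9 other HSP70 and HSP110 genes 0 were called. Hspa4l, an HSP110 gene, was the most positive, at 109.6, 89.4 and 118.4 CPM under DMSO and 203, 215 and 122.0 CPM under forskolin (log2 fold change 0.77; edgeR adjusted p = 0.145). Library 6 again lay close to the DMSO libraries, and removing the GC trend left 0.29 (edgeR adjusted p = 0.512), where 0 of all tested genes passed. Hspa4l passed with DESeq2 (adjusted p = 0.0203), library quality weights (0.00519), edgeR without library 6 (0.00484) and GC removal without library 6 (0.0398). Those settings called 10.9, 41.9, 33.6 and 32% of tested genes. Hspa4l was highest in libraries 4 and 5, as were the microglia sums, whose part was not tested. Hspa12b was the most negative (log2 fold change -0.50; edgeR adjusted p = 0.448; -0.16 without the GC trend).

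Of 19 J proteins 0 were called, with Dnajb4 the most positive (35.4, 30.8 and 42.9 CPM against 69.9, 66.4 and 48.4; log2 fold change 0.76; edgeR adjusted p = 0.104; 0.46 without the GC trend) and Dnajb12, a J protein of the ER membrane, the most negative (70.4, 72.1 and 71.7 CPM against 56.6, 50.8 and 47.3; log2 fold change -0.47; edgeR adjusted p = 0.0864; -0.30 without the GC trend). Dnajb4 and Dnajb12 passed with DESeq2 (adjusted p = 0.00462 and 0.00378), library quality weights (0.00536 and 0.00898) and edgeR without library 6 (0.00759 and 0.0155). They also passed with GC removal without library 6 (edgeR adjusted p = 0.00954 and 0.0440). Of 10 nucleotide exchange factors and related regulators of HSP70 0 were called. Hspbp1, which binds HSP70 and releases its nucleotide, was the most negative, at 56.7, 57.1 and 52.0 CPM under DMSO and 37.9, 34.3 and 23.0 CPM under forskolin (log2 fold change -0.80; edgeR adjusted p = 0.0973). GC removal left -0.33 (edgeR adjusted p = 0.365). Hspbp1 passed with DESeq2 (adjusted p = 0.00606) and with library quality weights (0.00655). Bag3, an HSF1 target that links HSP70 to autophagy, was the most positive (log2 fold change 0.39; edgeR adjusted p = 0.647; 0.63 without the GC trend).

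The small heat shock proteins had the highest list median, 0.60 on the log2 scale over 5 tested genes of 9, with 0 called. Each of the 5 had a positive fold change, as did 51.8% of all tested genes, and Hspb6 (3.31, 3.08 and 2.22 CPM against 4.76, 4.50 and 1.73) and Hspb2 (0.312, 0.197 and 0.196 CPM against 0.722, 0.823 and 0.0896) had the smallest and the largest. In both, as in Hspb1, libraries 4 and 5 were the highest and library 6 the lowest of the 6, and library 6 was below the DMSO mean in both. Hspb2 had a mean count of only 14.7 per library, so its values rest on few reads. The microglia and oligodendrocyte lineage sums and Gfap were likewise highest in libraries 4 and 5, whereas the astrocyte gene Aldoc was lowest there. The part of these markers was not tested. The 19 ER chaperones and stress sensors had a median of 0.14, with 0 called. Dnajc3, an ER J protein that inhibits the kinase PERK, was the most positive, at 66.9, 47.6 and 67.3 CPM under DMSO and 153.5, 145.4 and 56.1 CPM under forskolin (log2 fold change 0.97; edgeR adjusted p = 0.200). Dnajc3 too was highest in libraries 4 and 5, and the part of the markers named above was not tested. Herpud1, a component of ER-associated degradation, was the most negative (50.0, 54.3 and 47.3 CPM against 35.41, 35.02 and 44.46; log2 fold change -0.40; edgeR adjusted p = 0.160).

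The 10 chaperonins, the barrel-shaped folding machines of the cytosol and mitochondria, lay closest to 0, between -0.13 (Cct7) and 0.11 (Hspe1) on the log2 scale, with 0 called and 0 at an unadjusted p under 0.05, where 1.51% and 22.3% of all tested genes were. Of the other heat shock factors and their partners 3 of 5 were tested, from Hsf4 (log2 fold change -0.37) to Hsf2 (0.21), and 0 were called; the signs of Hsf2 and Hsf4 turned with the GC trend removed. Of the 10 genes 0, and of the 97 listed genes 0, are among the 132 genes in the authors' deposited table of this comparison, whose log2 fold changes run from 1.501 to 4.33, so that a lower gene or a smaller rise would not be in it.

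**Figure D5:**
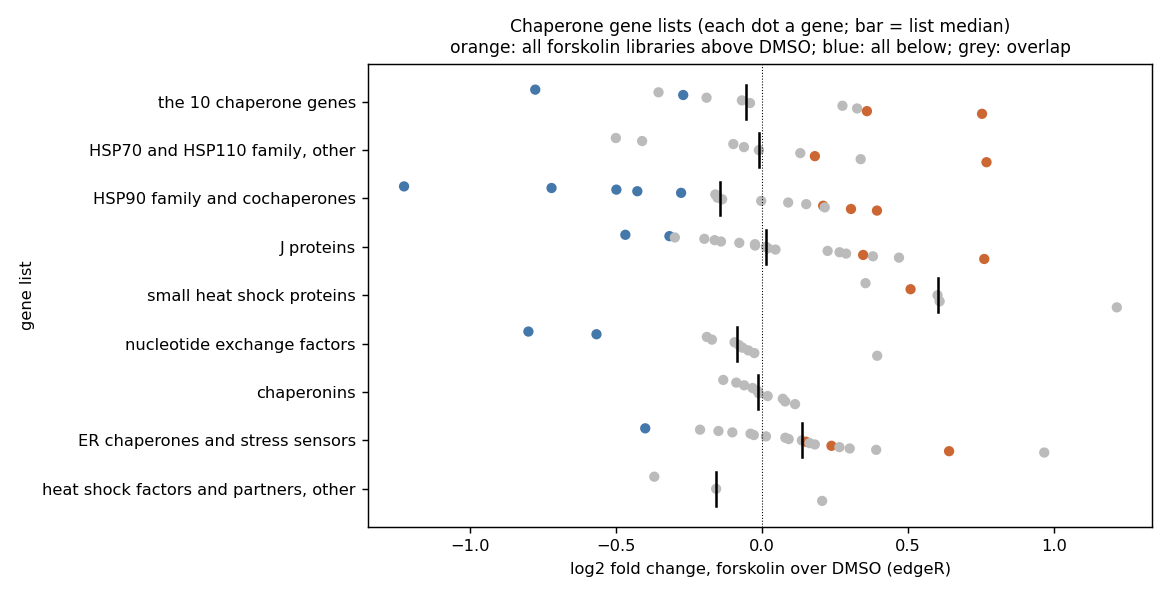
Each dot is a tested gene, placed by its edgeR log2 fold change of forskolin over DMSO, with the gene list on the vertical axis and a bar at each list's median; colour shows whether the groups overlapped in CPM. The chaperonins lie between -0.13 and 0.11, the HSP90 cochaperones reach down to -1.23 (Stub1), and the 5 small heat shock protein genes lie above 0.

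Likeness between genes was measured as the root mean square difference of log2 CPM, centred on each gene's own mean, over the 6 libraries. Hspa8 and Hsp90ab1 were nearest to each other (0.07), and Hsph1 was the next nearest to both (0.09 and 0.13). Hspa5 was nearest to Dnajb1 (0.11), and Hsp90aa1 was near to none of the members, the least distant being Hspa5 (0.37) and Dnajb1 (0.40). The mean profile of Hspa1a, Hspa1b, Dnajb1 and Hsph1, whose fold changes differ in sign, was most like those of Ebpl, Tspan14, Rps14, Kctd5 and Acss1 among tested genes outside the 10 (mean count 100 or more), with differences of 0.04 to 0.05.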

How the data were processed

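RNA of 3 DMSO and 3 forskolin libraries was extracted by the Trizol method and made into sequencing libraries by Illumina's standard procedure, per the labels' protocols. The authors deposited whole-number counts per gene symbol. The submitters' processing notes name Salmon, DESeq and GRCm38 with no role; annotation and strand setting are not given in the sources used here. A second table holds, per the file headers, the authors' mean normalised count (a signal), log2 fold changes with standard errors, a test score, p-values and adjusted p-values for 132 genes; only its gene names and the range of its fold changes were used.

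Genes were filtered with filterByExpr (minimum count 10, minimum total 15), scaled by TMM and tested with edgeR 4.0.16 (glmQLFit, glmQLFTest) in R 4.3.3, with Benjamini-Hochberg adjustment over 16233 genes and a threshold of 0.05. The SE is the absolute log2 fold change over the square root of F. Limma 3.58.1 and DESeq2 1.42.0 gave alternatives; the fits were tested on simulated data. The common biological coefficient of variation was 0.290. Likeness used a prior count of 2. Length, GC content (97.1% of tested genes) and 31-base words came from GENCODE M21 (GRCm38), using the longest transcript. Counting errors cover counting only.

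The members and gene lists were chosen with earlier results of these data known. Named from each list were called genes (at most 4) and the most positive and most negative.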

Additional observations from a re-analysis of the deposited data

How the results depend on the processing

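No paired analysis was possible because a DMSO and a forskolin library never carry the same number in the labels. Settings without libraries 4 and 5, and with the GC trend removed without library 6, were chosen after seeing the data.

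Hspa1b passed the threshold with DESeq2 (log2 fold change -0.76), library quality weights (-0.83), without library 6 (-0.84) and with GC removal without library 6 (-0.55). Hsp90aa1 did so under the same settings (0.77, 0.95, 0.85 and 0.65), Dnajb1 with quality weights (0.38) and GC removal without library 6 (0.46), Hspa5 with quality weights (0.36) and without library 6 (0.34), Hsp90ab1 with quality weights (-0.31), and Hspa8 and Hspb1 with GC removal without library 6 (-0.37 and 1.25). Directions turned for Hspa1a with the GC trend removed (0.0932), and without libraries 4 and 5 for Hspa8 (0.27), Hsph1 (0.24), Hsp90ab1 (0.0804) and Hspb1 (-1.36). Leaving out each library in turn gave log2 fold changes of -0.87 to -0.67 for Hspa1b, -0.26 to 0.0453 for Hspa8, 0.21 to 0.36 for Hspa5, -0.20 to 0.0434 for Hsph1, 0.62 to 0.98 for Hsp90aa1, -0.59 to -0.0468 for Hspa1a, 0.0249 to 0.82 for Hspb1, -0.34 to -0.0836 for Hsp90ab1, 0.27 to 0.49 for Dnajb1 and -0.33 to -0.20 for Hsf1.

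In lists, Chordc1, Hspe1, Hsf2 and Hsf4 turned with the GC trend removed (-0.27, -0.0174, -0.40 and 0.22) and so without library 6 as well (-0.42, -0.0790, -0.70 and 0.0692). Chordc1 was called in opposite directions: lower with GC removal without library 6 (edgeR adjusted p = 0.0209) and higher with library quality weights (0.45; limma-voom adjusted p = 0.0361). Hspb2, Hspb6, Bag3, Cct7 and Dnajc3 turned without libraries 4 and 5 (-1.32, -0.69, -0.88, 0.14 and -0.0751).

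Of the 10 genes, 1 higher and 1 lower were called with DESeq2, 3 and 2 with quality weights, 3 and 2 with GC removal without library 6, and 0 to 2 higher and 0 to 1 lower leaving out 1 library. Of the other chaperone genes 4 higher and 6 lower were called with DESeq2, 15 and 21 with quality weights, 13 and 24 with GC removal without library 6, 0 lower with GC removal, 2 lower without libraries 4 and 5, and 0 to 10 higher and 0 to 18 lower leaving out 1 library. Of all genes, 28 higher and 217 lower were called by edgeR on the 6 libraries; 796 and 979 with DESeq2, 3403 and 3392 with quality weights, 0 and 0 with GC removal, 2701 and 2728 with it and without library 6, 6 and 88 without libraries 4 and 5, 0 to 2796 and 0 to 2902 leaving out 1 library, 46 higher without a filter and 113 lower with RLE factors. With 0 genes called under GC removal, the smallest edgeR adjusted p was 0.0639.

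Summed markers without libraries 4 and 5 were 1.04 (neuron), 0.905 (microglia) and 0.561 (endothelial) times the DMSO mean; leaving out 1 library the endothelial fold ran from 0.893 to 1.63. Without TMM factors the centre of the log2 differences shifted from 0.0206 to -0.0851. The causes were not tested. Depth sets a counting error of 22.4% for Hspb1 and 15.1% for Hspa1a at their lowest counts, against a coefficient of variation between libraries of 52.25% under DMSO and 60.39% under forskolin for Hspb1, and of 34.97% and 4.907% for Hspa1a.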
